A study of Mus musculus with 12 samples.

Results

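Slco2a1, Kcnj5, Pde10a, Sdpr and Trpc6 are 5 signalling and membrane genes of 23472 counted in long-term haematopoietic stem cells (LT-HSCs) of mouse bone marrow. They were grouped as genes outside the interferon response, and whether they respond to interferon was not tested. They were selected on measured values, the normalised counts of libraries labelled Jak1 KO against wt over all 12 libraries and within 2 sets of them, so their genotype values are given as a description, with no test. All 5 passed the filter on low counts, which kept 13184 genes. The comparison set 6 libraries labelled Jak1 KO, from cre-positive mice, against 6 wt libraries, from cre-negative mice. Both groups were C57BL/6 and both had received 4 doses of poly(I:C), an RNA mimic of viral infection, 4 to 6 weeks before the marrow was taken, to set off the deletion. Cre and loss of Jak1 therefore cannot be told apart. The labels name neither the promoter of cre nor the deleted exons, and they do not say whether a library came from 1 animal. In each genotype 3 libraries carried VD names (replicates 1 to 3) and 3 carried ZL names (replicates 4 to 6). The VD names begin with MXplus in the libraries labelled Jak1 KO and with MXminus in wt, without a statement of what MX stands for.

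The 5 genes act at or just beneath the cell membrane. Slco2a1 encodes a transporter that carries prostaglandins such as PGE2 into cells, where they are broken down. Kcnj5 encodes Kir3.4 (GIRK4), a subunit of the inwardly rectifying potassium channels that G-protein βγ subunits open. Pde10a encodes a phosphodiesterase that splits cyclic AMP and cyclic GMP. Sdpr, now named Cavin2, encodes a coat protein of caveolae, the small flask-shaped pits of the plasma membrane. Trpc6 encodes a cation channel that diacylglycerol opens and that lets calcium in. JAK1, the kinase targeted in this study, carries signals from interferon and many interleukin receptors to STAT transcription factors. STAT complexes act at a pair of short DNA elements, the interferon-stimulated response element and the palindromic STAT site.

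Promoters of the 5 genes are shown because 4 of them differed between the genotypes while Trpc6 did not stand apart, and because the elements above can be looked for in them. The sequences are the 150 bases upstream of the RefSeq start (GRCm38.p6), 5′ to 3′ on the gene's strand, and capitals mark any of 3 short promoter elements. The first is the TATA box, spelled TATAAA. The second is the box named for its letters CCAAT. The last is the GC box, spelled GGGCGG, which reads CCGCCC where it lies on the opposite strand, as in Pde10a. Slco2a1 lies on the plus strand (chr9:103008337-103008486), Kcnj5 on the minus strand (chr9:32344345-32344494), and Pde10a (chr17:8801595-8801744), Sdpr (chr1:51288976-51289125) and Trpc6 (chr9:8543992-8544141) on the plus strand.
Slco2a1: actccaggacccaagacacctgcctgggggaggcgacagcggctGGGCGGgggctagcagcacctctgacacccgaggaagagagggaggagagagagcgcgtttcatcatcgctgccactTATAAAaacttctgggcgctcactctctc
Kcnj5: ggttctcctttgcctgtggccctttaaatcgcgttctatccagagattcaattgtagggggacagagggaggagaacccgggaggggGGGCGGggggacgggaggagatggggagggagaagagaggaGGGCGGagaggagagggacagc
Pde10a: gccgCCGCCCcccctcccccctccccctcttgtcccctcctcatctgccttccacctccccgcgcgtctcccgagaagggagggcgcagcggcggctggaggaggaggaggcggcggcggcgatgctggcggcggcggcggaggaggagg
Sdpr: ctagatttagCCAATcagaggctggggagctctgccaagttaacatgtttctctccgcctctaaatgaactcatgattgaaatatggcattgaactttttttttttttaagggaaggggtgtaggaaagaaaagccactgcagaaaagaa
Trpc6: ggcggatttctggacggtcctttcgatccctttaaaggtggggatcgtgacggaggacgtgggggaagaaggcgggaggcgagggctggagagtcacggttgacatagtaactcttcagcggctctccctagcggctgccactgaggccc

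RefSeq held 6 promoter entries for the 5 genes, since Pde10a has a second one, and the search covered 250 bases before and 50 after each start on both strands. The interferon-stimulated response element core (GAAA, 2 bases, GAAA) was in 0 of the 6 entries, and it was in 3.44% of all 32851 promoter entries. The STAT site was in 0 of 6 with a spacer of 3 bases (TTCNNNGAA, 8.30% of all entries) and in 0 of 6 with a spacer of 4 (TTC, 4 bases, GAA, 6.95%). A GATA site (AGATAA, 11.2%) and an ETS site (CCGGAAGT, 3.89%) were also in 0 of 6. A TATA box was in 1 entry, that of Slco2a1, at bases -29 to -24 from the start, against 13.6% of all entries. GC boxes were in 4 of 6 entries (35.7% of all) and CCAAT boxes in 2 of 6 (37.4%). Base composition set the promoters apart from each other: Pde10a's first entry was 72.8% G and C with 21 CpG in 250 bases, Sdpr's was 40.4% with 2, and the median of all entries was 52.4% with 6. These matches describe letters in a window only, and for Slco2a1 and Pde10a the GENCODE annotation starts the gene farther upstream, so which start these cells use is not known from gene counts.

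Total counts ranged from 8989965 to 28701855 in the libraries labelled Jak1 KO, and from 9824802 to 28261886 in wt libraries. Jak1 itself ranged from 246 to 727 CPM (normalised counts scaled to 1000000 per library) in the libraries labelled Jak1 KO and from 321 to 435 in wt (edgeR adjusted p = 0.945), and a count over the whole gene does not check a deletion of some exons. Stem cell markers Slamf1, Procr, Kit and 9 others were all counted at 1 CPM or more in at least 1 library. Of the other cell types, the T cell genes Cd3e, Cd3d, Cd3g and Cd8a, the B cell gene Pax5 and the endothelial genes Cdh5 and Sox17 stayed under 1 CPM in all 12 libraries. Other markers of these lists were well counted. The endothelial genes Tie1 and Esam averaged 242 and 167 CPM in the libraries labelled Jak1 KO and 240 and 167 CPM in wt. Other endothelial genes had higher means in the libraries labelled Jak1 KO. They were Ramp2 (10.4 against 3.38 CPM in wt), Sox18 (13.0 against 6.23), Emcn (50.1 against 31.4) and Egfl7 (127 against 75.7). Of the 11 endothelial genes tested, 7 had a log2 fold change below 0. By edgeR 0 of the 11 were past an adjusted p of 0.05, against 0.440% of all genes. The B cell gene Cd79b averaged 54.4 and 41.7 CPM in the same order, and Nkg7 of the T and NK cell list 54.6 and 58.4. Erythroid markers summed to 37.8 to 86.4 CPM in the libraries labelled Jak1 KO and 52.3 to 334 CPM in wt. Among them Alas2 reached 16.0 CPM in the libraries labelled Jak1 KO and 255 CPM in wt, and Hba-a1 and Hba-a2 had no reads. Neutrophil and monocyte markers summed to 128 to 1461 CPM in the libraries labelled Jak1 KO and 144 to 1473 CPM in wt. In Jak1 KO 4 the B cell markers summed to 146 CPM (29.7 to 55.7 in the other 5 libraries labelled Jak1 KO, 29.1 to 70.8 in wt) and the T and NK cell markers to 217 CPM (38.8 to 73.0 in the other 5, 46.8 to 107 in wt). The part of these cell types in the values below was not tested. Among the ZL libraries the relation of level to exon length differed. It was measured as Spearman's rho of length and deviation in log2 CPM from the other libraries of the name set. Across 13071 genes, which are not independent replicates, rho was -0.52 in Jak1 KO 4 and 0.45 in Jak1 KO 6. In the other ZL libraries rho was -0.17 (Jak1 KO 5), 0.22 (wt 4), -0.27 (wt 5) and 0.38 (wt 6).

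Slco2a1, Kcnj5, Pde10a and Sdpr had lower levels in libraries labelled Jak1 KO, and the means of Trpc6 were close. For those 4 genes the highest value labelled Jak1 KO was under the lowest wt value in both name sets, an arrangement that 0.963% of all 13184 genes tested showed. For Slco2a1, Kcnj5 and Pde10a the groups did not overlap over all 12 libraries (0.356% of all genes). In edgeR's quasi-likelihood test 4 of the 5 were past an adjusted p of 0.05 in the lower direction, as were 0.432% of all genes, and 0 of the 5 in the higher direction (0.00758%). Since the list was drawn up from this contrast, these counts are not evidence. The median log2 fold change was -1.87 over the members and -0.01 over all genes tested. In RNA from whole sorted populations, fewer cells that express a gene and less RNA per cell cannot be told apart.

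**Figure D1:**
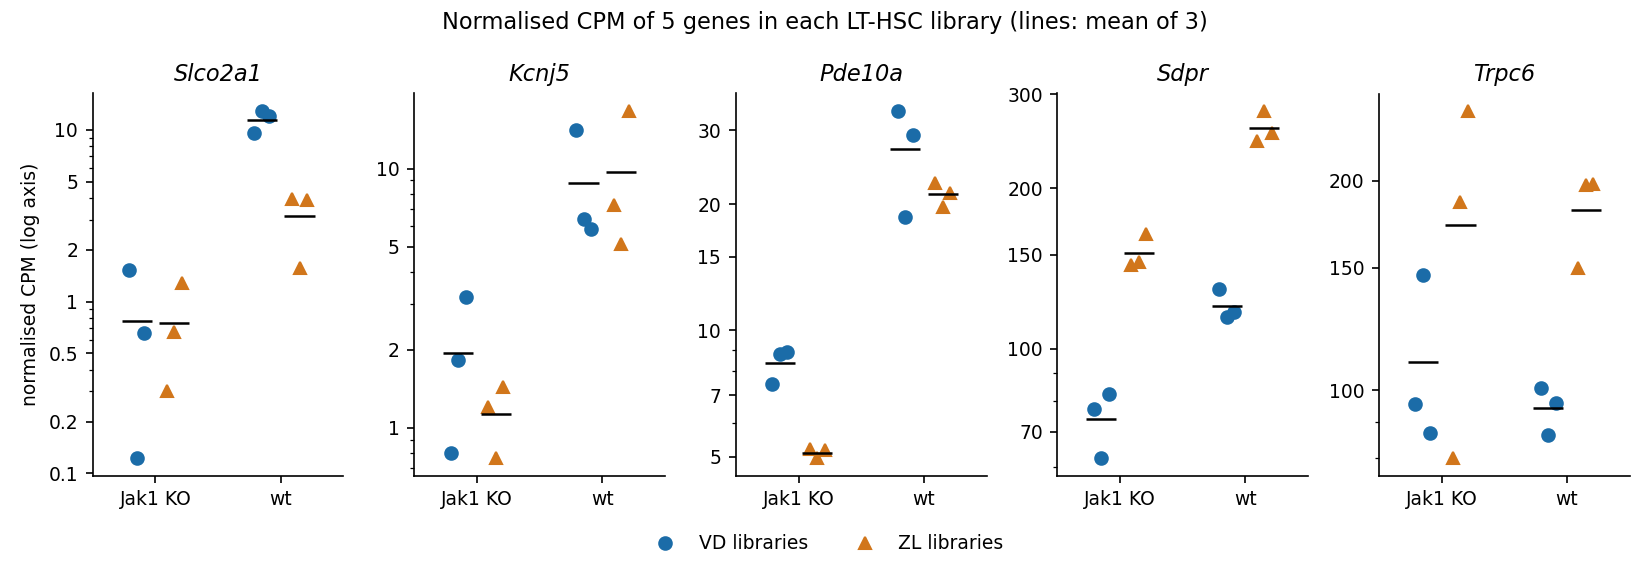
Normalised CPM (log axis) of each gene in each library, with libraries labelled Jak1 KO on the left and wt on the right of each panel, circles for VD and triangles for ZL libraries, and lines for the mean of 3. Slco2a1, Kcnj5, Pde10a and Sdpr sit lower in the libraries labelled Jak1 KO within each name set, and Trpc6 overlaps.

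Slco2a1, the prostaglandin transporter, had the lowest mean CPM of the 5 in each genotype over both name sets. In VD wt libraries, however, its mean was above that of Kcnj5 (11.5 against 8.79 CPM). The VD libraries labelled Jak1 KO held 1.52, 0.122 and 0.656 CPM of Slco2a1, against 9.57, 12.9 and 11.98 CPM in VD wt libraries. The ZL libraries labelled Jak1 KO held 0.302, 0.666 and 1.28 CPM, against 3.96, 1.56 and 3.89 CPM in ZL wt libraries. The groups stayed apart in both sets, but over all 12 libraries by a narrow margin: the highest value labelled Jak1 KO was 1.52 CPM, and wt 5 was at 1.56. In raw reads this was 84 in the 6 libraries labelled Jak1 KO and 647 in the 6 wt libraries. The library labelled Jak1 KO 2 held 1 read, for which the exact Poisson 95% interval runs from 0.00309 to 0.680 CPM and covers counting error only. The log2 fold change was -2.88 (SE 0.53) over all libraries, -3.76 (SE 0.54) in VD and -2.04 (SE 0.63) in ZL. Among wt libraries, the VD set held 11.5 ± 1.72 CPM and the ZL set 3.14 ± 1.36 (SD, n = 3 each), while the libraries labelled Jak1 KO held 0.766 ± 0.705 and 0.748 ± 0.492 CPM in the same sets. The gene spans chr9:102988712-103096002 in GENCODE's annotation of GRCm38, with 13.5 kb of exon sequence, and a small ribosomal RNA gene of the opposite strand overlaps its exons.

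Kcnj5, the potassium channel subunit, was nearly as low. VD libraries labelled Jak1 KO had 0.800, 1.83 and 3.19 CPM, against 14.1, 6.39 and 5.86 CPM in VD wt libraries. ZL libraries labelled Jak1 KO had 1.21, 0.762 and 1.43 CPM, against 7.22, 5.12 and 16.7 CPM in ZL wt libraries. No library labelled Jak1 KO reached the lowest wt value of 5.12 CPM, and the wt values were themselves spread over a wide range, with wt 1 and wt 6 far above the other 4. Over the 6 libraries of each group the mean was 1.54 ± 0.902 CPM in those labelled Jak1 KO and 9.24 ± 4.90 CPM in wt (SD). The log2 fold change was -2.65 (SE 0.43), with -2.14 (SE 0.53) in VD and -3.09 (SE 0.54) in ZL. Without wt 6 it was -2.31. GENCODE places the gene at chr9:32314707-32344350, with no other annotated gene on its exons.

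Pde10a, the cyclic nucleotide phosphodiesterase, had nearly even values in the ZL set and less even ones in VD wt libraries. VD libraries labelled Jak1 KO had 7.44, 8.78 and 8.90 CPM, against 33.4, 18.6 and 29.2 CPM in VD wt libraries. ZL libraries labelled Jak1 KO had 5.21, 4.95 and 5.18 CPM, against 22.5, 19.7 and 21.3 CPM in ZL wt libraries. The 3 ZL values of each genotype lay close together, with a coefficient of variation of 2.75% in the libraries labelled Jak1 KO and 6.69% in wt, against 9.73% and 28.1% in VD in the same order. The highest library labelled Jak1 KO, at 8.90 CPM, stayed below the lowest wt library, at 18.6. The log2 fold change was -1.87 (SE 0.18) over all libraries, -1.66 (SE 0.24) in VD and -2.06 (SE 0.29) in ZL. Leaving out any 1 library kept it between -1.98 and -1.82. Its 12.8 kb of exon sequence is spread over chr17:8525372-8986648, where 3 annotated genes of the opposite strand overlap it outside its exons.

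Sdpr, the caveolar coat gene, was abundant and differed by less. VD libraries labelled Jak1 KO had 77.3, 62.4 and 82.3 CPM, against 129, 115 and 117 CPM in VD wt libraries. ZL libraries labelled Jak1 KO had 143, 146 and 164 CPM, against 245, 279 and 254 CPM in ZL wt libraries. Within each set the genotypes were apart, but the ZL libraries labelled Jak1 KO lay above all 3 VD wt libraries, so the groups overlapped when the sets were mixed. The log2 fold change was -0.74 (SE 0.12), with -0.66 (SE 0.11) in VD and -0.78 (SE 0.22) in ZL, and the libraries labelled Jak1 KO held 59.8% of the wt level in the fit. Sdpr covers chr1:51289126-51302960 with 3.06 kb of exon sequence. Its protein is abundant in platelets, and megakaryocyte and platelet markers moved with it: 13 of 15 were tested, 12 of those had a log2 fold change below 0, and 1 (Itga2b, the integrin subunit CD41) was past edgeR's threshold in the lower direction, against 0.432% of all genes. Their summed level ranged from 788 to 1062 CPM in the libraries labelled Jak1 KO and from 1600 to 2126 CPM in wt. None of these megakaryocyte and platelet markers in the table was at 0. The part of these markers in the difference of Sdpr, or of the other 3 lower genes, was not tested.

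Trpc6, the diacylglycerol-gated cation channel, did not follow the other 4. VD libraries labelled Jak1 KO had 95.8, 147 and 86.9 CPM, against 101, 86.3 and 95.9 CPM in VD wt libraries. ZL libraries labelled Jak1 KO had 79.9, 186 and 252 CPM, against 150, 197 and 198 CPM in ZL wt libraries. The genotypes overlapped in each set, and the ZL libraries labelled Jak1 KO held both the lowest and the highest Trpc6 level of all 12. Over all libraries the means were 141 ± 67.9 CPM in those labelled Jak1 KO and 138 ± 51.0 CPM in wt (SD, n = 6 each), and the log2 fold change was 0.07 (SE 0.23). It was 0.25 (SE 0.16) in VD and -0.07 (SE 0.40) in ZL. The lowest value came from Jak1 KO 4 and the highest from Jak1 KO 6, ZL libraries with opposite trends on exon length. The ZL libraries wt 5 and wt 6 also had opposite trends, and they held 197 and 198 CPM. The part of the length trend in the spread of Trpc6 was not tested. The log2 fold change was 0.28 without Jak1 KO 4 and -0.07 without Jak1 KO 6. With each library's length trend taken out by an offset, chosen after the data were seen, it was 0.11. Trpc6 covers chr9:8544142-8680741 with 5.07 kb of exon sequence. Slco2a1, Kcnj5 and Trpc6 thus lie on the same chromosome, far from each other.

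**Figure D2:**
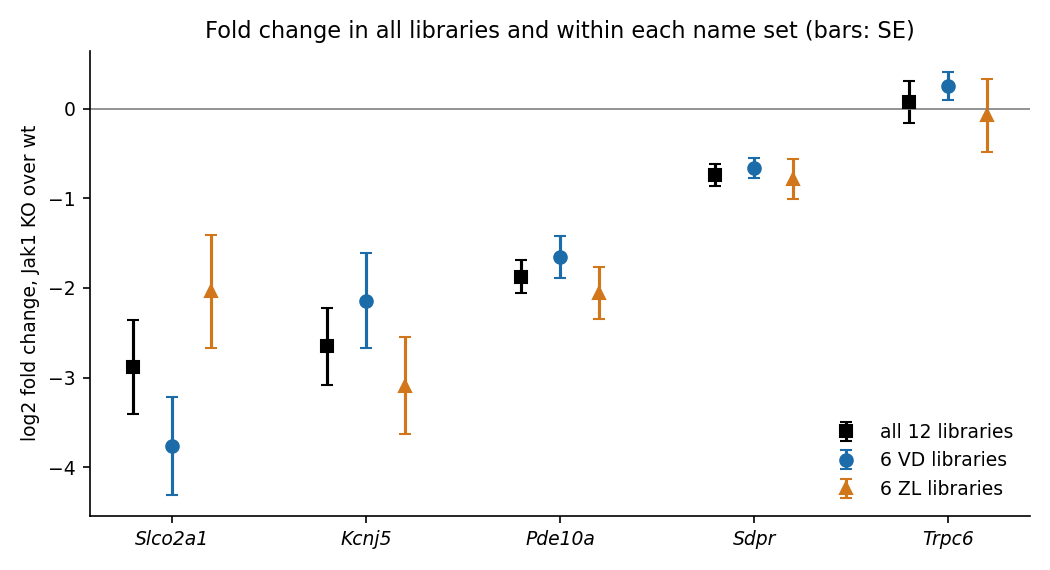
Log2 fold change of the libraries labelled Jak1 KO over wt for each gene, from all 12 libraries (squares), the 6 VD libraries (circles) and the 6 ZL libraries (triangles), with bars for the SE. The 4 lower genes are below 0 in both sets, from -0.66 for Sdpr to -3.76 for Slco2a1 in VD, and Trpc6 lies at 0.25 in VD and -0.07 in ZL.

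Levels of the 5 genes were set side by side per length, as CPM per kb of exon sequence. In the libraries labelled Jak1 KO the order was Sdpr (36.8 ± 14.2), Trpc6 (27.9 ± 13.4), Pde10a (0.525 ± 0.145), Kcnj5 (0.328 ± 0.193) and Slco2a1 (0.0559 ± 0.0401). In wt libraries it was Sdpr (62.1 ± 25.2), Trpc6 (27.2 ± 10.1), Kcnj5 (1.97 ± 1.05), Pde10a (1.88 ± 0.457) and Slco2a1 (0.540 ± 0.353), all as SD with n = 6. Sdpr stood above Trpc6 in 5 of 6 libraries labelled Jak1 KO and in 6 of 6 wt libraries. Kcnj5 was above Pde10a in 0 of 6 libraries labelled Jak1 KO and in 2 of 6 wt libraries, so in wt this pair of neighbours did not differ beyond their spread. Per length, Slco2a1 was the lowest of the 5 in all 12 libraries. This rank and the percentiles below rest on lengths that join all annotated exons, 13.5 kb for Slco2a1 and 4.69 kb for Kcnj5. Which of these exons the cells use is not known from gene counts. Among 13071 tested genes with a length, the mean per-length level of Slco2a1 was at percentile 0.115 in the libraries labelled Jak1 KO and at 8.82 in wt. That of Sdpr was at percentile 88.7 in the libraries labelled Jak1 KO and 95.2 in wt, and that of Trpc6 at 84.0 and 83.9.

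Relatives of the 5 genes were examined with 8 lists of family and pathway genes, 154 genes in all, of which 99 were tested. With edgeR 0 of the 99 were past an adjusted p of 0.05 in either direction, against 0.440% of all genes. At an unadjusted p under 0.05 there were 4 of 99, against 5.06% of all genes. DESeq2 called 1 of the 99, against 126 of all 13184 genes, and limma 3 of the 99, against 220 of all 13184. Log2 fold changes of the relatives lay between -0.81 and 1.16 with a median of -0.05. Slco2a1, Kcnj5 and Pde10a lay below that range, which is not evidence, since they were chosen on this contrast.

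Of the organic anion transporters, 3 of 14 were tested. Slco3a1 was at 38.0 ± 9.86 CPM in the libraries labelled Jak1 KO and 45.0 ± 18.7 in wt, and Slco4a1 at 49.7 ± 14.97 and 56.3 ± 6.84 in the same order (SD, n = 6 each). Both were far above Slco2a1 in counts, and both had log2 fold changes within 0.3 of 0. Among 18 tested prostaglandin enzymes and receptors, 7 were below 0 and the median log2 fold change was 0.06. Hpgds, which makes prostaglandin D2, was at 14.0 ± 3.74 CPM in the libraries labelled Jak1 KO and 7.19 ± 2.52 in wt (log2 fold change 0.96, SE 0.26, edgeR adjusted p = 0.274). DESeq2 put it past the threshold (adjusted p = 0.0393), as did limma (0.0449). Pla2g4a, the phospholipase that frees arachidonic acid, came next by p, with a log2 fold change of -0.31 (SE 0.15).

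Inward rectifier channels had 4 of 14 genes tested, of which Kcnj10 (log2 fold change -0.66, SE 0.43) and Kcnj2 (0.64, SE 0.64) had the smallest p. Chosen for its close relation to Kcnj5 rather than by the naming rule, Kcnj6 (GIRK2) was at 2.17 ± 1.63 CPM in the libraries labelled Jak1 KO and 1.72 ± 1.10 in wt. Kcnj3 (GIRK1), with which Kcnj5 forms the cardiac channel, had at most 2 reads in any library of either genotype, and Kcnj9 (GIRK3) at most 5 in the libraries labelled Jak1 KO and 10 in wt. Of the other phosphodiesterases 17 of 23 were tested, with log2 fold changes between -0.44 and 0.40. Pde5a, which splits cyclic GMP, was at -0.44 (SE 0.19) and Pde6d at 0.40 (SE 0.24). Pde3b was called by limma alone (0.69, adjusted p = 0.0431), where edgeR gave 0.21 (adjusted p = 0.945). The 16 tested cyclases and cyclic nucleotide kinases had a median of -0.12, and the smallest p belonged to the adenylyl cyclases Adcy6 (-0.54, SE 0.23) and Adcy4 (-0.75, SE 0.42).

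Caveolar genes did not share the lower level of Sdpr as a group, since 5 of 12 tested were below 0 and the median was 0.06. The cavin partner Ptrf (Cavin1), which caveolae need to form, was at 117 ± 49.96 CPM in the libraries labelled Jak1 KO and 102 ± 45.7 in wt (log2 fold change 0.20, SE 0.15, edgeR adjusted p = 0.945). Prkcdbp (Cavin3) was at 71.6 ± 79.5 CPM and 35.99 ± 18.5 in the same order (0.71, SE 0.47), and Cav2 at 34.6 ± 23.6 and 30.5 ± 17.8 CPM. Cav1, the main structural caveolin of most tissues, had at most 9 reads in the libraries labelled Jak1 KO and at most 1 in wt. These 4 were chosen for their relation to Sdpr. Under the naming rule, Ehd3, a membrane-remodelling ATPase, was at 41.3 ± 11.3 CPM in the libraries labelled Jak1 KO and 70.1 ± 18.8 in wt (-0.74, SE 0.22, adjusted p = 0.418), and limma called it (adjusted p = 0.0252). Pacsin2, a membrane-bending protein of caveolae, was at -0.33 (SE 0.18).

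TRP channels other than Trpc6 had 13 of 25 genes tested, 6 of them below 0. Trpc2 (-0.34, SE 0.18) and Trpm5 (1.16, SE 0.68) had the smallest p. Trpc7, a close relative of Trpc6, did not pass the filter, with at most 16 reads per library in those labelled Jak1 KO and at most 7 in wt. All 16 listed genes of store-operated and diacylglycerol-linked calcium entry were tested, and their log2 fold changes lay between -0.37 and 0.31, with Orai3 (0.20, SE 0.14) and the phospholipase Plcb2 (0.22, SE 0.17) having the smallest p.

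**Figure D3:**
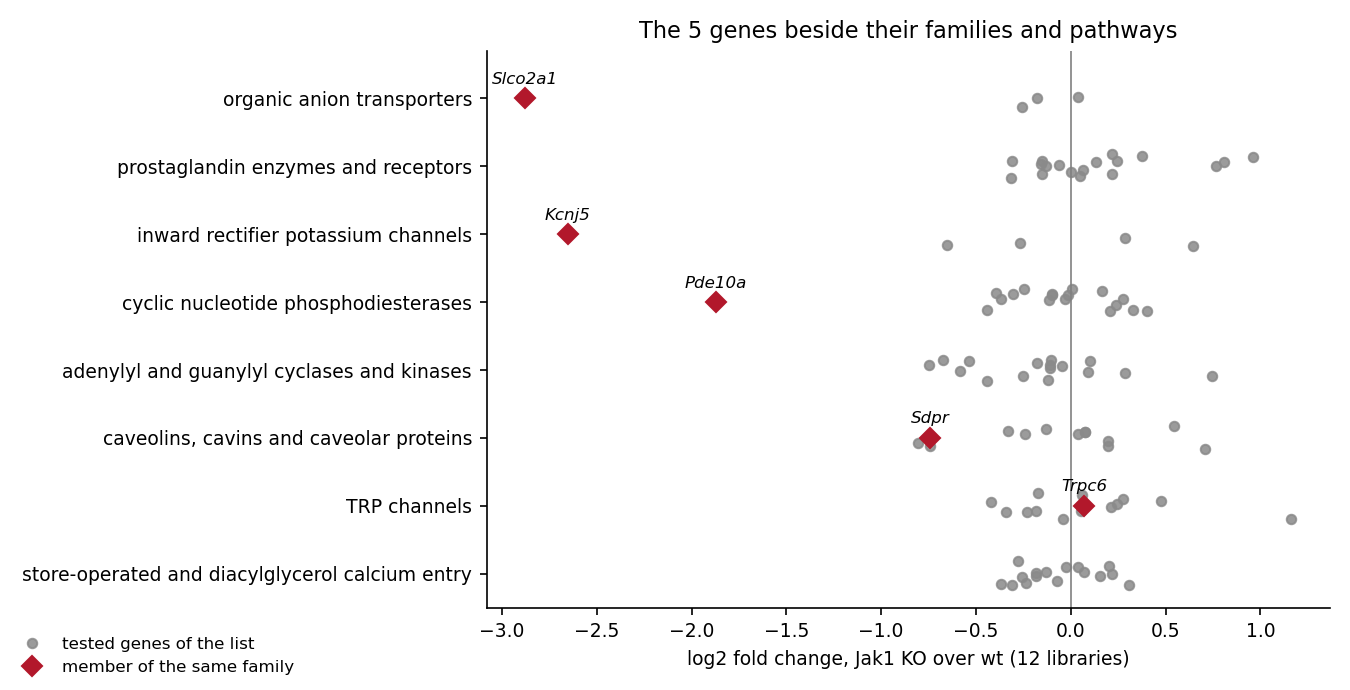
Log2 fold change of the libraries labelled Jak1 KO over wt for the tested genes of 8 family and pathway lists (grey, spread vertically at random for legibility) with the 5 genes as diamonds in their own family. Slco2a1, Kcnj5 and Pde10a lie to the left of all 99 relatives, Sdpr lies among the lowest caveolar genes and Trpc6 within the TRP channels. The 5 genes were chosen on this contrast, so their place beside the relatives is a description only.

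The VD minus ZL difference was not the contrast on which the 5 genes were chosen, and it could be tested. The choice did, however, look at genotype values within each name set. Pde10a was higher and Sdpr and Trpc6 were lower in the VD libraries than in the ZL libraries, with genotype in the model. These are 3 of the 5 genes, while 60.0% of all genes tested were past an adjusted p of 0.05 in this contrast (24.5% higher and 35.4% lower in VD), so the share among the 5 is that of the whole table. Sdpr had 97.2 ± 26.8 CPM in VD and 205 ± 60.7 in ZL libraries (SD, n = 6 each), a log2 difference of -1.07 (SE 0.12, edgeR adjusted p = 7.31e-06). Trpc6 had 102 ± 22.6 CPM in VD and 177 ± 57.7 in ZL (-0.80, SE 0.24, adjusted p = 0.00968). Pde10a had 17.7 ± 11.3 CPM in VD and 13.1 ± 8.83 in ZL (0.53, SE 0.18, adjusted p = 0.0198). This call was lost without wt 1 (adjusted p = 0.0579), and with the length offset the difference was -0.17 (adjusted p = 0.468). Slco2a1 (1.10, SE 0.51, adjusted p = 0.0793) and Kcnj5 (0.27, SE 0.41, adjusted p = 0.590) did not pass, and Slco2a1 passed without Jak1 KO 2 or without Jak1 KO 6 (adjusted p = 0.0183 and 0.0178). The ribosomal RNA gene Rn45s moved with the set, at 14.8% to 22.6% of counts in VD and 0.511% to 0.950% in ZL libraries, and with it and Lars2 left out the differences of Sdpr and Trpc6 were -0.91 and -0.64.

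Whether the genes vary together from library to library was examined after the mean of each genotype and name set had been removed, so that the contrast behind the list played no part. Over the 12 libraries, 10 pairs were compared with exact two-sided permutation within the 4 groups of 3 (1296 arrangements, smallest possible p 0.000772). None of the 10 pairs passed: the smallest Pearson p was 0.156 (0.927 adjusted over the 10 pairs). This was Kcnj5 with Pde10a, at Pearson r = 0.50 and Spearman rho = 0.50 (exact permutation p = 0.147, 0.964 adjusted), and r = 0.61 over the 10 libraries left without Jak1 KO 3 and wt 6. With 1 library left out, r for this pair ran from 0.30 (without wt 1) to 0.77 (without wt 2). Slco2a1 with Sdpr had r = 0.48 (exact permutation p = 0.384), and r was -0.03 without Jak1 KO 1 and Jak1 KO 2. It was 0.44 without Jak1 KO 1 alone and -0.13 without Jak1 KO 2 alone, so the value of 0.48 rests on Jak1 KO 2. The other 8 pairs had r between -0.20 and 0.17. Within each name set the 4 lower genes were low in the libraries labelled Jak1 KO, which follows from how they were chosen. Covariation among libraries of a group was not detectable at this size.

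Genes whose pattern over the 12 libraries was most like that of each gene were found by Pearson r of log2 CPM centred within name set, among 10350 genes with a mean of at least 5 CPM. The genotype difference is part of this measure, and r is a description. For Slco2a1 they were Reep2 (r = 0.93), Oas2 (0.91) and H2-Q5 (0.91). Kcnj5 was most like Usp18 (0.95), Mfsd2b (0.94) and Uba7 (0.93). Pde10a was most like Clca1, Tgtp2 and Igtp (0.97 each), and Sdpr most like Iigp1 (0.98), Ifi44 (0.98) and Ache (0.97). Trpc6, by contrast, was most like Zfp11 (0.95), Thbs1 (0.94) and Fam73a (0.93), whose log2 fold changes were 0.14, 1.73 and 0.10. Paralogs of H2-Q5 and Tgtp2 may share their reads. The log2 fold changes of the 12 genes listed for the 4 lower members were all below 0, from -0.52 for Reep2 to -6.34 for Oas2. That direction follows from how these genes were picked and is not evidence.

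**Figure D4:**
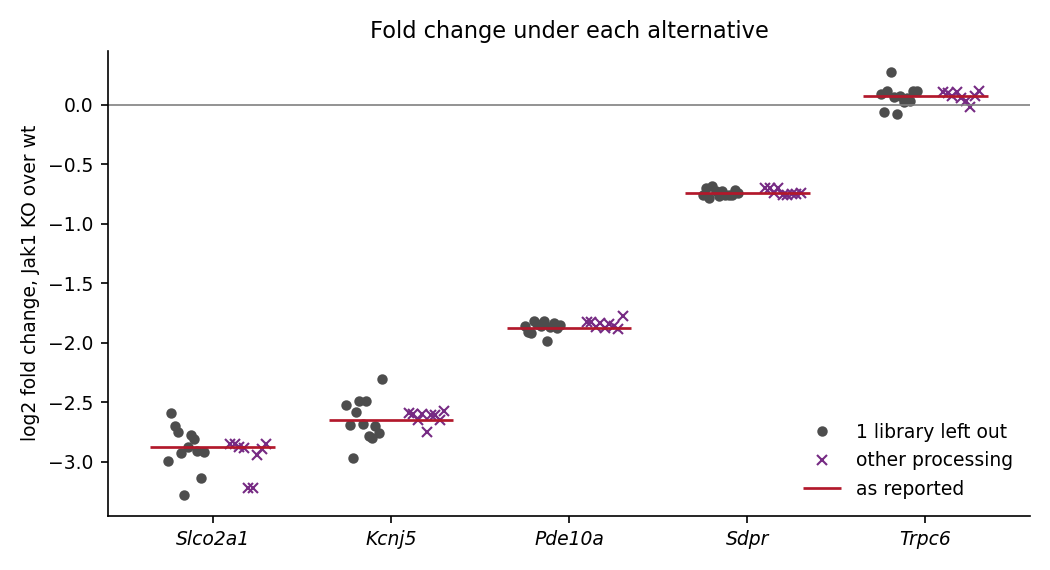
Log2 fold change of each gene with 1 library left out (dots, 12 fits) and under other processing (crosses), with a line at the value reported above. Slco2a1 ranges from -3.28 to -2.59 and Pde10a from -1.98 to -1.82 with 1 library left out, and Trpc6 falls on both sides of 0.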

How the data were processed

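The authors deposited raw read counts per gene for 12 libraries, made from TRIzol RNA with a poly-A TruSeq kit per the labels' protocols. The submitters' processing notes name STAR 2.3.0e, featureCounts, Subread and mm10. For the annotation and the strand setting, the entry is: not given in the sources used here. Thus reads of overlapping or antisense genes cannot be told apart. Columns were matched to samples by their descriptions and to groups by their titles. All replicates within a genotype and name set differed beyond sampling noise (lowest chi-square per degree of freedom 14.2, for Jak1 KO 1 and Jak1 KO 2), and p-values measure the spread between these libraries, which may be technical.

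Counts were fitted in R 4.3.3 with edgeR 4.0.16 (filterByExpr, TMM, a term for name set and 1 for genotype, quasi-likelihood F test, Benjamini-Hochberg over all 13184 genes, threshold 0.05), after a check on simulated data with 200 changed genes. SE was derived from the log2 fold change and the F statistic. CPM uses TMM-scaled library sizes, and log2 CPM a prior count of 2. DESeq2 1.42.0 and limma 3.58.1 (voom with quality weights) were alternatives. Exon lengths come from GENCODE M21 (GRCm38, matching 23112 symbols) and promoters from RefSeq (GRCm38.p6), where Sdpr is listed as Cavin2. Named relatives are, per list, those past the threshold or otherwise the 2 with the smallest p. The 3 genes most alike to each member are named too. Ptrf, Prkcdbp, Cav1, Cav2, Kcnj3, Kcnj6, Kcnj9, Trpc7 and Pde3b were added after their values were seen. The members and lists were chosen with earlier results of these data known.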

Additional observations from a re-analysis of the deposited data

How the results depend on the processing

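The fold changes of all 5 genes moved by less than the spread between libraries (1 SD of log2 CPM) in each of the 21 alternatives run, and those of Slco2a1, Kcnj5, Pde10a and Sdpr stayed below 0. The count of genes past the threshold was 58 (57 lower, 1 higher). It was 126 with DESeq2 (98 lower, 28 higher), 220 with limma (174 and 46) and 14 without the name set term (14 and 0), and with 1 library left out it ranged from 39 to 77. The higher genes were 3 at an adjusted p of 0.1, 3 with no filter, 3 with the length offset, 2 with the replicate block, and 0 to 2 with 1 library left out. Relatives past the threshold were 1 with DESeq2 and 3 with limma. The cause of these differences was not tested. With the replicate number as a block, 72 genes passed. Same-numbered libraries correlated at 0.04 to 0.67, and 6 of 12 libraries correlated best with their own number, so the numbers were not taken as pairs.

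For the VD minus ZL difference, Slco2a1 was past the threshold with no filter (1.18), DESeq2 (1.22) and limma (2.19), was 0.50 with the length offset (adjusted p = 0.395), and ranged from 0.81 to 1.43 with 1 library left out. Kcnj5 ranged from -0.018 to 0.64 and Pde10a from 0.47 to 0.67, and Pde10a was -0.17 with the length offset. Among the correlations, none of which passed, DESeq2's size factors turned the r of Trpc6 to -0.026 with Slco2a1, -0.038 with Kcnj5, -0.11 with Pde10a and -0.40 with Sdpr. With 1 library left out, r ranged from -0.30 to 0.40 for Slco2a1 and Kcnj5, -0.13 to 0.72 for Slco2a1 and Sdpr, -0.57 to 0.57 for Slco2a1 and Trpc6, -0.12 to 0.37 for Kcnj5 and Sdpr, -0.092 to 0.22 for Kcnj5 and Trpc6, -0.16 to 0.36 for Pde10a and Sdpr, -0.053 to 0.22 for Pde10a and Trpc6, and -0.29 to 0.58 for Sdpr and Trpc6. Slco2a1 is limited by depth, with 1 to 32 reads per library labelled Jak1 KO.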

Other observations

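Genes near the 5 members on the chromosome were also compared between the genotypes. Within 500 kb of the start of Slco2a1 there were 11 tested genes, around Kcnj5 3, around Pde10a 6, and around Sdpr and Trpc6 1 each. Of these 22, edgeR put 0 past the threshold, against 0.440% of all genes, while 3 of the 22 were under 0.05 before adjustment, a level that 5.06% of all genes reached. Those 3 had log2 fold changes below 0, at -0.82 for Amotl2 and -0.42 for Cdv3 near Slco2a1, and -0.44 for Fli1 near Kcnj5. Around Slco2a1 the log2 fold changes lay between -0.82 and 0.39, around Kcnj5 between -0.44 and 0.12, and around Pde10a between -0.37 and 0.40. Next to Sdpr, Nabp1 had a log2 fold change of 0.14.

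The spread among libraries of a genotype depended on whether the name sets were pooled. Over both sets, for Slco2a1 the coefficient of variation was 71.8% in the libraries labelled Jak1 KO and 65.3% in wt, and for Pde10a it was 27.6% and 24.3% in the same order (n = 6 each). Within VD it was 92.1% in the libraries labelled Jak1 KO and 14.99% in wt for Slco2a1, and 9.73% and 28.1% for Pde10a (n = 3 each), so in VD wt libraries the order of these genes was the opposite. In neither genotype did 1 library of any of the 5 genes lie apart from the other 5 by Dixon's criterion for 6 samples. These 6 pool both name sets, so a library apart only within its own set can be missed.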
